A study of Mus musculus with 6 samples.

Results

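Isocitrate dehydrogenases oxidise isocitrate to 2-oxoglutarate, and their transcripts were followed here in aortas of mice fed a high fat diet, with chow-fed mice as controls. The genes are Idh3a, Idh3b, Idh3g, Idh2 and Idh1. Every probe set that the array's annotation assigns to exactly 1 of these 5 genes was taken, which gave 10 of the 22626 probe sets that are not controls, and all 10 passed the filter on low signals. Idh3a had been chosen by its own signals in these same arrays, where it was higher on the high fat diet, so that its difference between the diets is described without a test. The other 4 genes were added as its sister subunits and isoforms.

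RNA came from aortas of C57BL/6J mice, and each array carried the RNA of a pool of 3 aortas. The aortas are described as cleared of adventitia and of the fat around the vessel. Even so, Ucp1, a brown adipocyte marker, averaged 3480 on high fat and 2479 on chow. Dcn, a fibroblast marker, averaged 3484 on high fat and 4173 on chow. How complete the clearing was is not known. The high fat group had 3 pools, with the diet given for 16 to 18 weeks, from an age of 10 weeks in replicates 2 and 3, which were males, while the label of replicate 1 gives an age of 16 to 20 weeks and no sex. Whether that age is at the start or at collection is unclear, and it sits poorly with the length of the diet. The chow group had 3 pools of males, aged 26 to 28 weeks in replicates 2 and 3 and with no age given for replicate 1. The composition of the high fat diet is not given in the sources used here, and n = 3 pools per diet holds for every value. The number of arrays limits the precision, and the p-values reflect how pools, not single animals, varied.

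In the mitochondrial matrix, the NAD-dependent enzyme IDH3 carries out the isocitrate step of the tricarboxylic acid cycle and is one of the points at which the flux of the cycle is controlled. It is built from a catalytic α subunit, encoded by Idh3a, and from β and γ subunits, encoded by Idh3b and Idh3g. The isoforms encoded by Idh2, in mitochondria, and Idh1, in the cytosol and peroxisomes, use NADP instead, work as dimers of identical subunits and yield NADPH, which serves lipid synthesis and the defence against peroxides. Oxidative tissues such as heart and brown fat are rich in IDH3 and in IDH2.

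The arrays were alike in scale, with median signals of 58.4 to 66.6. The 3′ to 5′ ratio of the actin control, which rises as RNA degrades, was less even. It was 1.94 in high fat replicate 2 and 1.79 in chow replicate 2, against 1.27 to 1.56 in the other pools. That of the Gapdh control was 1.38 in chow replicate 2 and 0.887 to 1.18 in the other pools. The part of RNA quality in the values was not tested. Smooth muscle markers, which mark the wall of the aorta, were bright in both diets. Acta2, the smooth muscle actin, averaged 8386 ± 946 on high fat and 8709 ± 1325 on chow (SD, n = 3 each), and the summed signal of 10 smooth muscle markers was 27275 to 28236 on high fat and 26480 to 32763 on chow. Of 13575 probe sets tested with limma, 10 passed an adjusted p of 0.05, which is 0.0737%.

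Idh3a was higher in every high fat pool than in any chow pool on each of its 3 probe sets, by 1.51-fold to 1.94-fold. The probe set 1432016_a_at, of the highest mean, had signals of 1618, 2162 and 1863 in high fat replicates 1, 2 and 3, against 1272, 977 and 1509.6 in chow replicates 1, 2 and 3. The lowest high fat pool thus lay just above the highest chow pool. In RNA of whole tissue, more cells of a type and more RNA per cell cannot be told apart. The means were 1881 ± 272 on high fat and 1253 ± 267 on chow (SD), and the log2 fold change was 0.60 ± 0.17 (SE).

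The probe set 1422501_s_at had 507, 567 and 522 in high fat replicates 1, 2 and 3, against 263.5, 257 and 294.5 in chow replicates 1, 2 and 3. Here the diets were far apart, and the spread within each diet was small. The means were 532 ± 30.9 on high fat and 272 ± 20.0 on chow, a log2 fold change of 0.95 ± 0.14 (SE). The suffix _s_at marks probes that may also bind transcripts of other genes. The third probe set, 1422500_at, had 197, 296.5 and 193 in high fat replicates 1, 2 and 3, against 125, 99.2 and 121 in chow replicates 1, 2 and 3. High fat replicate 2 stood well above the other high fat pools on it. Its log2 fold change was 0.94 ± 0.20 (SE). The estimates on 1422501_s_at and 1422500_at were above that on 1432016_a_at, a difference that was not tested. These values chose the gene, so nothing is read from them against the 6.26% of tested probe sets whose high fat pools all lay above all chow pools.

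**Figure D1:**
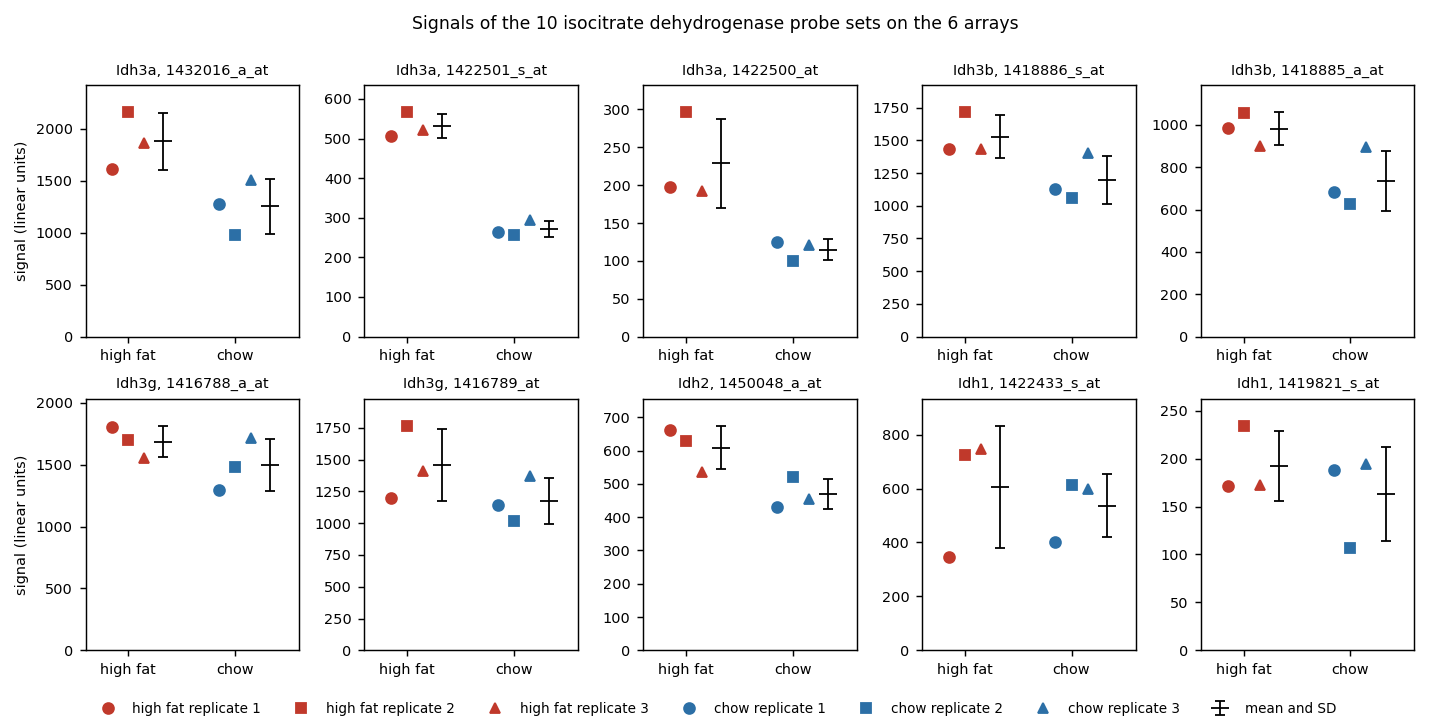
Signal in linear units (vertical axes, from 0) of each of the 10 isocitrate dehydrogenase probe sets, with high fat pools at the left in red, chow pools at the right in blue, and the mean with SD of 3 pools beside them. The diets are separate on all 3 Idh3a probe sets, both Idh3b probe sets and the Idh2 probe set, and overlap on both Idh3g and both Idh1 probe sets.

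The 4 sister genes had 7 probe sets, all with a higher mean on the high fat diet, as had 48.2% of all probe sets tested. None of the 7 passed the adjusted threshold in limma. At an unadjusted p of 0.05, 3 of the 7 were higher, both of Idh3b and that of Idh2, against 3.92% of all probe sets tested that were higher at this p. The same 3 had every high fat pool above every chow pool, against 6.26% of all probe sets. The 2 probe sets of a gene measure the same transcripts and are not independent. The median log2 fold change of the 7 was 0.30, beside -0.01 over all probe sets tested.

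Idh3b, the β subunit, had 1437.5, 1716 and 1433 on probe set 1418886_s_at in high fat replicates 1, 2 and 3, against 1129, 1057 and 1401 in chow replicates 1, 2 and 3. Chow replicate 3 came close to the high fat pools. The means were 1529 ± 162 on high fat and 1196 ± 182 on chow, a log2 fold change of 0.36 ± 0.14 (SE, 95% interval 0.04 to 0.68, limma adjusted p = 0.649). Its second probe set, 1418885_a_at, had 987, 1058.5 and 902.5 in high fat replicates 1, 2 and 3, against 682, 627 and 896 in chow replicates 1, 2 and 3. Chow replicate 3 was again the highest chow pool, just under the lowest high fat pool. The log2 fold change was 0.43 ± 0.16 (SE, limma adjusted p = 0.594). In the exact two-sided permutation test over the 6 arrays, both gave p = 0.1, the smallest that 3 against 3 allows.

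Idh3g, the γ subunit, had 1807, 1701 and 1555 on probe set 1416788_a_at in high fat replicates 1, 2 and 3, against 1295, 1481 and 1715 in chow replicates 1, 2 and 3. The diets overlapped, with chow replicate 3 above 2 of the 3 high fat pools. The means were 1687.5 ± 126 on high fat and 1497 ± 210.3 on chow, a log2 fold change of 0.18 ± 0.14 (SE, 95% interval -0.12 to 0.48, limma adjusted p = 0.823). Without chow replicate 1 it was 0.079, and without chow replicate 3 it was 0.28. On 1416789_at, Idh3g had 1202, 1765 and 1412 in high fat replicates 1, 2 and 3, against 1141, 1016 and 1370.5 in chow replicates 1, 2 and 3. High fat replicate 1 lay below chow replicate 3, and the log2 fold change was 0.30 ± 0.17 (SE, limma adjusted p = 0.752). The interval on 1416788_a_at includes no change and reaches a 1.39-fold higher level.

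The windows before the transcription start of Idh3b, Idh3g and Idh2 are shown, since these are the mitochondrial sister genes, all with higher means on the high fat diet. Sequences are from RefSeq on GRCm38.p6. Windows were at hand for 4 of the 5 genes, and none for Idh3a. Each run is the 250 bases before the listed start, 5′ to 3′ on the minus strand, with matches to the searched motifs in capitals. For Idh3b and Idh3g the listed start is the outermost base of the gene. The Idh2 window lies inside the gene, which extends to chr7:80118608, so that a start further out is not covered.
Idh3b, chr2:130284452-130284701: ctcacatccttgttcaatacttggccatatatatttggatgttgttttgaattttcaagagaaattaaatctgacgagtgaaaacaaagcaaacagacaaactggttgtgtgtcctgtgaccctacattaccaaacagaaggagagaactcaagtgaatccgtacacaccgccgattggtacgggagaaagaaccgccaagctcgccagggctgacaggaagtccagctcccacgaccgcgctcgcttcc
Idh3g, chrX:73786898-73787147: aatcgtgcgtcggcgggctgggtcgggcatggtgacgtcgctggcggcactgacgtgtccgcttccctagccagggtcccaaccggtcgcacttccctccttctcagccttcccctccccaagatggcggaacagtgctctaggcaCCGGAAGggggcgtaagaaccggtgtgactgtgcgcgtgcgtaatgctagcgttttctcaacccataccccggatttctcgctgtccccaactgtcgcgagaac
Idh2, chr7:80115351-80115600: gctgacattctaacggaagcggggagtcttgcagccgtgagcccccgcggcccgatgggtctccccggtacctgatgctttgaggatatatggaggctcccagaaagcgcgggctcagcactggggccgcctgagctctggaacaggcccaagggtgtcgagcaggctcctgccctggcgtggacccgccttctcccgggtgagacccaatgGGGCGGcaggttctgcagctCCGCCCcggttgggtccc

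Motifs were searched on both strands: CCGGAAG of ETS factors such as GABP, the palindromic motif of NRF1, TGACGTCA of CREB-type factors, the GC box GGGCGG and the nuclear receptor half-site AGGTCA. Idh3g held CCGGAAG, 104 bases before its start, and 6.91% of all 32851 such windows hold it. Idh2 held the GC box 38 and 18 bases before its listed start, the nearer one on the other strand, and 32.7% of all windows hold at least 1. Both windows of Idh1, which has 2 listed starts, held the GC box too. The Idh3b window held none of these 5 motifs, which says only that these letters are not in it. NRF1 letters stand in 3.74%, CREB-type letters in 1.55% and the half-site in 14.0% of all windows, and in none of the windows of Idh3b, Idh3g, Idh2 and Idh1. Idh3a had no window and was not searched.

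The ratio of the catalytic subunit to its partners was formed per array as the log2 value of Idh3a minus the mean log2 value of Idh3b and Idh3g, on the probe sets of highest mean. Only its difference between arrays can be read, since signals of different probe sets are not on 1 scale. It was 0.0057, 0.34 and 0.32 in high fat replicates 1, 2 and 3, against 0.07, -0.36 and -0.04 in chow replicates 1, 2 and 3. High fat replicate 1 lay among the chow pools. The mean was 0.33 higher on high fat, a description without a test. Without chow replicate 2 the difference was 0.20, and with the mean of all probe sets of each gene it was 0.51. For the β over the γ subunit, the log2 ratio was -0.33, 0.01 and -0.12 in high fat replicates 1, 2 and 3, against -0.20, -0.48 and -0.29 in chow replicates 1, 2 and 3. The diets overlapped, with a difference of 0.18 (exact two-sided permutation test, p = 0.3), which was 0.27 without high fat replicate 1 and 0.10 when either replicate 2 was left out.

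Idh2, the mitochondrial NADP enzyme, had 661, 629.8 and 536 on its single probe set 1450048_a_at in high fat replicates 1, 2 and 3, against 432, 520.1 and 455 in chow replicates 1, 2 and 3. All high fat pools were above all chow pools, the closest being high fat replicate 3 and chow replicate 2. The means were 609 ± 64.8 on high fat and 469 ± 45.8 on chow, a log2 fold change of 0.37 ± 0.14 (SE, 95% interval 0.05 to 0.69, limma adjusted p = 0.639). The exact two-sided permutation test gave p = 0.1, again its smallest.

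Idh1, the cytosolic NADP enzyme, had 346, 726 and 747 on probe set 1422433_s_at in high fat replicates 1, 2 and 3, against 400.5, 613 and 597 in chow replicates 1, 2 and 3. The pool lowest of all 6 and the pair highest of all 6 were high fat pools. The means were 606 ± 226 on high fat and 537 ± 118 on chow, a log2 fold change of 0.12 ± 0.28 (SE, 95% interval -0.50 to 0.74, limma adjusted p = 0.947). It was 0.48 without high fat replicate 1, and -0.051, -0.072 and -0.078 without high fat replicate 2, high fat replicate 3 and chow replicate 1. The second probe set, 1419821_s_at, had 171, 234 and 172 in high fat replicates 1, 2 and 3, against 188, 106.5 and 195 in chow replicates 1, 2 and 3. Chow replicate 2 was the lowest of the 6, and high fat replicate 2 the highest. The log2 fold change was 0.26 ± 0.24 (SE, limma adjusted p = 0.856). The 2 Idh1 probe sets did not order the pools alike, and 1419821_s_at has no accession in the annotation.

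The log2 ratio of Idh2 to Idh1 was 0.92, -0.20 and -0.47 in high fat replicates 1, 2 and 3, against 0.11, -0.23 and -0.39 in chow replicates 1, 2 and 3. The diets overlapped, with a difference of 0.25 (exact two-sided permutation test, p = 0.8). Without high fat replicate 1, which had the highest ratio, the difference was -0.17.

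**Figure D2:**
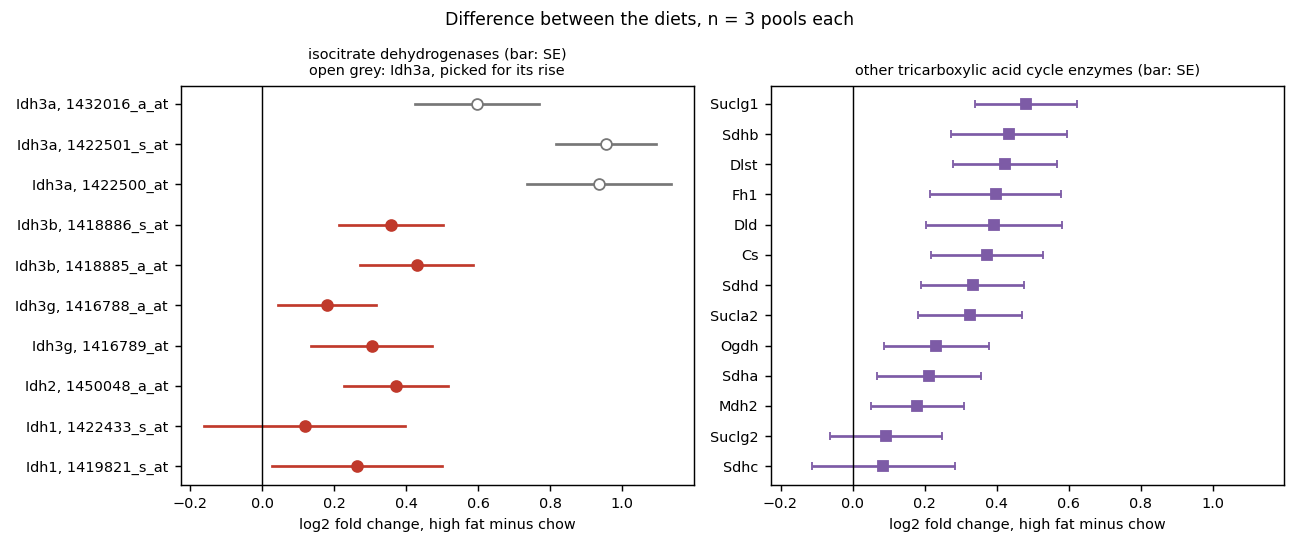
Log2 fold change, high fat minus chow (horizontal axes), of the 10 isocitrate dehydrogenase probe sets at the left and of 13 other tricarboxylic acid cycle genes at the right, with SE, n = 3 pools per diet. All estimates are above 0, those of Idh3a (open symbols) on values that chose the gene.

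Within a diet, the highest pool and the lowest chow pool were mostly the same over the IDH3 subunits, while the lowest high fat pool was not. Of the 7 probe sets of Idh3a, Idh3b and Idh3g, 6 were highest among the high fat pools in replicate 2, 6 were highest among the chow pools in replicate 3, and 6 were lowest among the chow pools in replicate 2. No share over all probe sets was formed beside these counts, and probe sets of the same gene are not independent. High fat replicate 2 also had the highest median signal of the 6 arrays, 66.6. The lowest high fat pool was replicate 1 on 3 of the 7 and replicate 3 on 4, and it differed between probe sets of Idh3a and between those of Idh3g. The exceptions to the 6 of 7 were 1416788_a_at of Idh3g for the highest high fat pool and the lowest chow pool, and 1422500_at of Idh3a for the highest chow pool. Deviations from the mean of the 6 arrays on 1418886_s_at of Idh3b were 0.10, 0.35 and 0.09 in high fat replicates 1, 2 and 3, against -0.25, -0.35 and 0.06 in chow replicates 1, 2 and 3, on the log2 scale. Those of Idh3a on 1432016_a_at were 0.09, 0.51 and 0.29 in high fat replicates 1, 2 and 3, against -0.25, -0.63 and -0.0079 in chow replicates 1, 2 and 3. Idh2 ordered the pools otherwise, with replicate 1 highest on high fat and replicate 2 highest on chow.

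Marker lists of some other cells had mostly higher means on the high fat diet, as these genes had. Others did not: of 10 smooth muscle markers, 8 had lower means and 2 higher, where 48.2% of all probe sets tested had higher means. Of the 8, 1 had an unadjusted p under 0.05 in limma, as had 954 of the 13575 probe sets tested, in either direction. Of 10 brown adipocyte markers, 8 were on the array and 7 passed the filter. The list was written with earlier results of these arrays known, so its counts are a description. All 7 that passed the filter had higher means on the high fat diet. In limma, 0 passed the adjusted threshold and 5 were higher at an unadjusted p of 0.05. Over all probe sets tested, 48.2% had higher means and 3.92% were higher at that p. Ucp1, the uncoupling protein of brown adipocytes, had 3664, 3623 and 3154 in high fat replicates 1, 2 and 3, against 2592.5, 2122 and 2724 in chow replicates 1, 2 and 3, and was thus present in every pool. The summed signal of the 8 markers was 10351 to 12559 on high fat and 6724 to 8875 on chow, without overlap. Zic1 was the dimmest of them, at a mean of 19.6 on high fat and 11.9 on chow. The list mean deviated from that of the 6 arrays by 0.09, 0.44 and 0.32 in high fat replicates 1, 2 and 3, against -0.38, -0.44 and -0.03 in chow replicates 1, 2 and 3, so that the highest pool of each diet was the one in which most IDH3 probe sets were highest.

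With this mean as a covariate, the log2 fold change of Idh3a was -0.088 ± 0.26 on 1432016_a_at, 0.70 ± 0.28 on 1422501_s_at and 0.49 ± 0.39 on 1422500_at (SE). That of Idh3b was -0.11 ± 0.25 on 1418886_s_at, that of Idh3g -0.0033 ± 0.28 on 1416788_a_at, that of Idh2 0.53 ± 0.30 and that of Idh1 -0.77 ± 0.48 on 1422433_s_at. The estimates on 1432016_a_at and of Idh3b and Idh3g thus did not stay above 0, while those of Idh2 and of the other Idh3a probe sets did. Since the marker mean separates the diets by itself, diet and marker mean can hardly be told apart with 6 arrays.

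Cardiac muscle markers, a second list chosen with earlier results known, followed another order. All 13 that passed the filter had higher means on the high fat diet, but limma gave no unadjusted p under 0.05 for any of them. Their summed signal over 14 markers was 1122 to 7172.5 on high fat and 1137 to 3678.5 on chow, with high fat replicate 1 the lowest pool and high fat replicate 2 the highest. With the cardiac mean as a covariate, the log2 fold change of Idh3a on 1432016_a_at was 0.57, of Idh3b 0.36, of Idh3g 0.24, of Idh2 0.40 and of Idh1 -0.18, the last a turn in direction. Macrophage markers had higher means in 8 of 9, with summed signals of 2604 to 4367 on high fat and 2027 to 2649 on chow. Of them, 5 were higher at an unadjusted p of 0.05 in limma. Beside these list counts, 48.2% of all probe sets tested had higher means and 3.92% were higher at that p. No such share was formed for the sums. Endothelial markers had higher means in 9 of 10, with sums of 1702 to 2037 on high fat and 1569 to 1592 on chow, and nerve and Schwann cell markers in 4 of 4, with sums of 334 to 500 on high fat and 241 to 319 on chow. The sums of both lists, like those of the brown adipocyte list, did not overlap between the diets. Nor did those of the 8 fibroblast markers, which were lower in sum, at 10031 to 10424 on high fat and 10626 to 11355 on chow. Sums weigh the brightest genes most. Of these 8, 3 had higher means and 5 lower, with 0 at an unadjusted p under 0.05 in limma. Their list mean of log2 values overlapped between the diets. White adipocyte markers had higher means in 5 of 7, with overlapping sums of 9368 to 10417 on high fat and 9740 to 12914 on chow. The 1 marker past the adjusted threshold in limma, named after its value was seen, was Retn, the adipocyte hormone resistin, with a log2 difference of -1.06 ± 0.16 (SE; limma adjusted p = 0.0435). The part of these lists in the isocitrate dehydrogenase values was not tested. The 10 skeletal muscle markers summed to 358 to 673 on high fat and 396 to 993 on chow, and 7 of them averaged under 50.

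**Figure D3:**
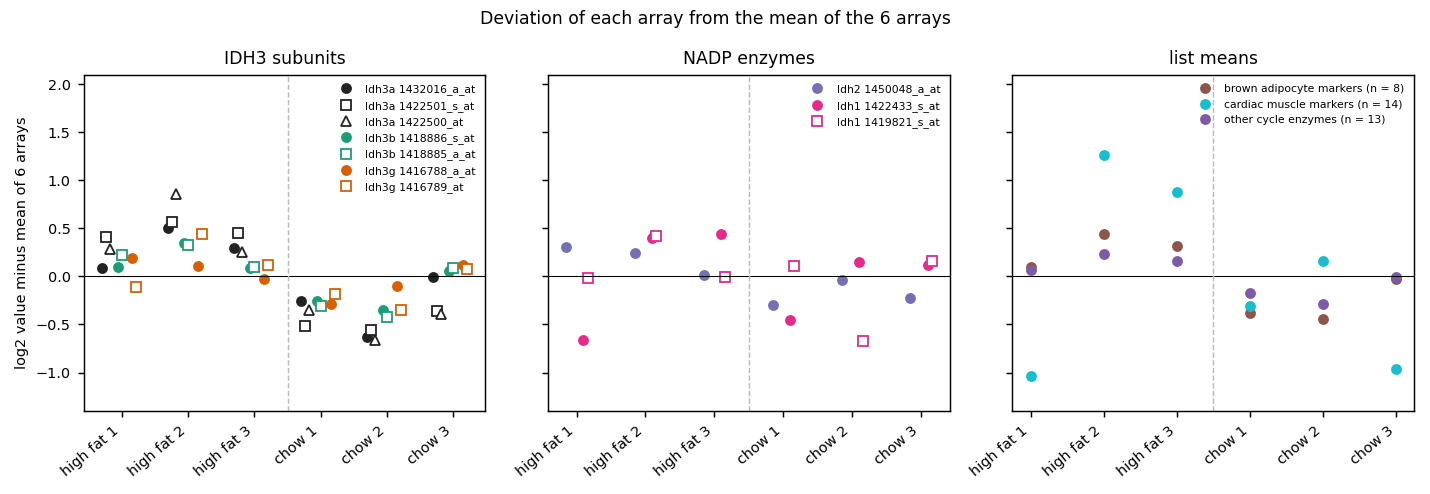
Log2 value minus the mean of the 6 arrays (vertical axis) for each pool (horizontal axis, high fat pools left of the dashed line, chow pools right of it), for the IDH3 subunits, the NADP enzymes, and the means of 3 gene lists. High fat replicate 2 is high and chow replicate 2 low for most IDH3 probe sets and for the brown adipocyte markers, while the cardiac markers are lowest in high fat replicate 1 and chow replicate 3.

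The neighbouring enzymes were taken from whole pathway lists, written with earlier results of these arrays known. Of 14 other tricarboxylic acid cycle genes, 13 were on the array with a probe set of their own, and all 13 had higher means in the high fat pools, as had 48.2% of all probe sets tested. Their median log2 fold change was 0.33, beside -0.01 over all probe sets. None passed the adjusted threshold in limma. At an unadjusted p of 0.05, 6 were higher, against 3.92% of all probe sets tested. Also 6 had every high fat pool above every chow pool, against 6.26%. Suclg1, a subunit of succinyl-CoA ligase, had 993, 1267 and 959.6 in high fat replicates 1, 2 and 3, against 789.9, 753 and 740.5 in chow replicates 1, 2 and 3 (log2 fold change 0.48 ± 0.14 SE, limma adjusted p = 0.498). Dlst, the succinyltransferase of the 2-oxoglutarate dehydrogenase complex, which uses the product of IDH3, had 793, 895 and 776 in high fat replicates 1, 2 and 3, against 567, 561 and 714 in chow replicates 1, 2 and 3. Sdhc, a subunit of succinate dehydrogenase, had the smallest difference at 0.09 ± 0.20 (SE). The sister subunits Idh3b and Idh3g, at 0.36 and 0.18, lay within the range of these enzymes, 0.09 to 0.48, and Idh3a at 0.60 lay above it on a value that chose the gene.

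Genes that handle citrate and 2-oxoglutarate outside the cycle went both ways, 4 higher and 5 lower of 9, with a median log2 fold change of -0.02 and none at an unadjusted p of 0.05 in limma. Aco1, the cytosolic aconitase that supplies isocitrate to IDH1, had 500.3, 323 and 394 in high fat replicates 1, 2 and 3, against 635, 433 and 522 in chow replicates 1, 2 and 3 (log2 fold change -0.38 ± 0.19 SE, limma adjusted p = 0.744). It was the member of this list with the lowest fold change. Got1, the cytosolic aspartate aminotransferase, had 67.9, 289.9 and 252.5 in high fat replicates 1, 2 and 3, against 120.0, 132 and 76.3 in chow replicates 1, 2 and 3. As with Idh1, its highest pools were high fat replicates 2 and 3 and its lowest was high fat replicate 1.

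Other genes that supply NADPH were 4 higher and 4 lower of 8, with a median log2 fold change of 0.04. None passed the adjusted threshold in limma, and 2 were higher at an unadjusted p of 0.05, against 3.92% of all probe sets tested. Pgd, the phosphogluconate dehydrogenase of the pentose phosphate pathway, averaged 852 ± 103 on high fat and 587 ± 87.7 on chow, without overlap (log2 fold change 0.54 ± 0.16 SE, limma adjusted p = 0.492). Me1, the cytosolic malic enzyme, averaged 1043 ± 320 on high fat and 618 ± 134 on chow, with overlap between the diets (0.72 ± 0.23 SE, limma adjusted p = 0.531). Aldh1l1, which forms NADPH from formyltetrahydrofolate, averaged 108 ± 38.6 on high fat and 163 ± 67.1 on chow, a log2 fold change of -0.56 ± 0.32 (SE, limma adjusted p = 0.765).

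The genes whose values over the 6 arrays lay nearest to those of Idh3a on 1432016_a_at were ranked by the root mean square difference of the centred log2 values. The 10 nearest lay at 0.07 to 0.10, where the median of all probe sets tested was 0.43. They were Plbd1, Coq6, which acts in coenzyme Q synthesis, Dgat2, which makes triglycerides, Foxm1, a transcription factor of the cell cycle, and Ndufb6, a subunit of respiratory complex I, followed by Clybl, Cycs, which is cytochrome c, Prelid3b, Decr1, which reduces unsaturated intermediates of fatty acid oxidation, and Dusp19. Cycs had 1556, 1710.2 and 1589 in high fat replicates 1, 2 and 3, against 1051, 895.5 and 1284 in chow replicates 1, 2 and 3. It was highest in high fat replicate 2 and lowest in chow replicate 2. Since closeness to Idh3a picked these genes, a shared order and a shared rise follow from the choice. Foxm1 was dim, with 28.6 to 42.7 on chow, and was read by an _x_at probe set, which may bind other transcripts.

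Among the isocitrate dehydrogenases themselves, Idh3b lay nearest to Idh3a at 0.16, Idh3g at 0.31, Idh2 at 0.32 and Idh1 at 0.46, on the probe sets of highest mean. Of all probe sets tested, 0.877% lay nearer to Idh3a than Idh3b did, 13.3% nearer than Idh3g, 14.7% nearer than Idh2 and 62.2% nearer than Idh1. On the second probe sets Idh3b lay at 0.16, Idh3g at 0.17 and Idh1 at 0.21, with 0.773%, 1.05% and 2.62% of all probe sets tested nearer. Idh1 was then nearer than Idh2, and the order depends on the probe set. The distances to Idh3a take in the diet difference by which it was chosen, so these shares test nothing. On those of highest mean, Idh3b and Idh3g lay 0.16 apart and Idh3g and Idh2 lay 0.16 apart, whereas Idh2 and Idh1 lay 0.47 apart. The nearest genes to Idh3b were Pcca, a subunit of propionyl-CoA carboxylase, Pigq and Eci1, an isomerase of fatty acid oxidation, at 0.04 each. Those to Idh3g were Cmip, Atp5a1, a subunit of ATP synthase, and Hmgxb3, at 0.01 to 0.03. Bicd2, Mapk8ip3 and Gramd3 were nearest to Idh2, at 0.03 to 0.06, and Nsg1, Timm50, a subunit of the mitochondrial import channel, and Th were nearest to Idh1, at 0.10 to 0.12. With 13575 probe sets and 6 arrays, such closeness is a description of these pools.

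**Figure D4:**
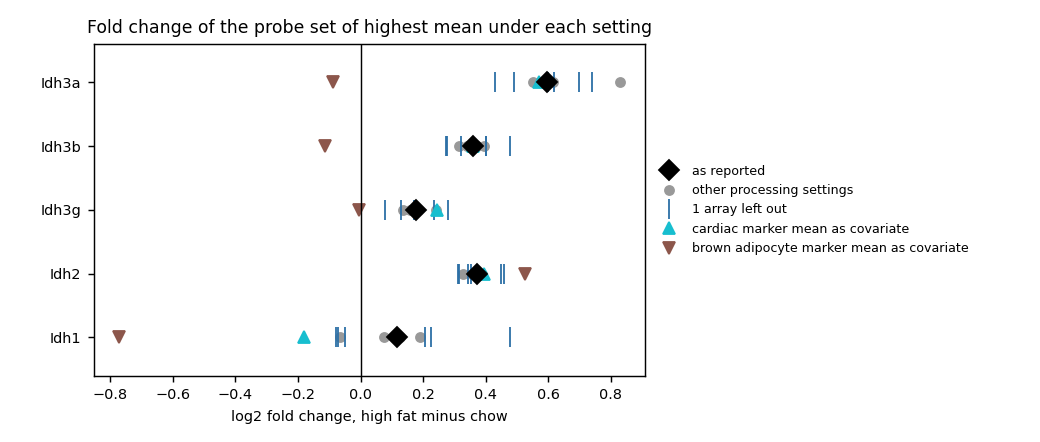
Log2 fold change, high fat minus chow (horizontal axis), of the probe set of highest mean of each gene as reported (black diamonds), under other processing settings (grey), with 1 array left out (blue bars) and with a marker mean as a covariate (triangles). Idh2 is above 0 in all settings drawn, Idh3a, Idh3b and Idh3g in all but the fit with the brown adipocyte mean, and Idh1 falls on both sides of 0.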

How the data were processed

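Aorta RNA of 6 pools was measured on Affymetrix mouse arrays, with 5 µg of RNA per labelling, per the labels' protocols. The deposited values are linear signal intensities per probe set. The submitters' processing notes name MAS5, with no version or settings in the sources used here. Since all arrays had a 2% trimmed mean of 150.05, the authors' scaling was kept. Of 22690 probe sets, 64 were controls and were dropped. The platform annotation gave the gene names: 20380 probe sets had 1 symbol, 691 several and 1555 none. By gene ID, 20351 of those with 1 symbol matched RefSeq's GRCm38.p6 gene table, and 0 symbols changed.

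Signals were taken as log2(signal + 6), and fold changes on that scale understate changes at low signals. Probe sets above the 40th percentile of mean log2 value, a signal of 40.7, were kept. No detection calls were used. For the comparison of the diets, limma 3.58.1 was run under R 4.3.3 (lmFit, then trended eBayes, two-sided), and p-values were adjusted by Benjamini-Hochberg across all 13575 of them. The probe set of highest mean stands for a gene in ratios, lists and nearest genes. The rule for named genes took every isocitrate dehydrogenase probe set, the 2 genes of smallest p and that of lowest fold change in each pathway list, at most 2 of highest signal in each marker list, and the nearest genes (10 for Idh3a, 3 for each sister). Cycs and Foxm1 among these, and Zic1, were given values after those were seen. The members and lists were chosen with earlier results of these data known. The steps were tested on simulated data. Alternatives were pseudocounts of 1 and 21, quantile normalization, equal medians, no filter or one at the 60th percentile, other variance models, weighted arrays, replicate numbers as a block, marker means as covariates, the mean of a gene's probe sets, and each array left out.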

Additional observations from a re-analysis of the deposited data

How the results depend on the processing

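Each result was recomputed under up to 19 alternatives. The count of 10 probe sets past the threshold became 6 when nothing was filtered, 6 when the probe sets of each gene were averaged, 5 with no variance trend and 5 with the cardiac marker mean as a covariate. It was 0 in limma with the brown adipocyte mean, where 330 had an unadjusted p under 0.05, and 5 to 16 with 1 array left out: 16 without high fat replicate 1, and 5 when replicate 2 of either diet was left out. With the replicate number as a block it was 5. The numbers share no source in the labels, the deviations of same-numbered pools correlated at 0.03, 0.17 and -0.11, and the numbers were not taken to pair the pools. The block moved none of the 7 sister probe sets past the adjusted threshold, and Idh3a was not tested. No probe set of a sister gene passed in any setting, with limma adjusted p-values of 0.385 to 1.

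With the brown adipocyte mean, the log2 fold change reversed to -0.088 for Idh3a on 1432016_a_at, to -0.11 and -0.027 for Idh3b, to -0.0033 and -0.36 for Idh3g, and to -0.77 and -0.46 for Idh1. Idh1 on 1422433_s_at also reversed with array weights (-0.064), with the cardiac mean (-0.18) and without single arrays (-0.051, -0.072 and -0.078, in a range of -0.078 to 0.48), and on 1419821_s_at without chow replicate 2 (-0.0065, in a range up to 0.41). The Idh2 over Idh1 difference ranged from -0.17, without high fat replicate 1, to 0.53 with 1 array left out. The causes were not tested. The ranges with 1 array left out were 0.43 to 0.74 for Idh3a on 1432016_a_at, 0.27 to 0.48 for Idh3b, 0.079 to 0.28 for Idh3g and 0.31 to 0.46 for Idh2, and for the ratio differences 0.10 to 0.27 for Idh3b over Idh3g and 0.20 to 0.44 for Idh3a over both. Without detection calls, low signals such as those of Foxm1 could not be set apart from background.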
